A study of Homo sapiens with 10 samples.

Results

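The genes described here were 47 interferon-stimulated genes, picked by symbol from the count table of a DUSP1 deletion experiment, and all 47 were found among its 58735 genes. They were grouped by known role into 5 sensors of nucleic acid, 4 transcription factors and 38 effectors. RNA was sequenced from A253, a human line derived from a squamous cell carcinoma of the salivary gland, in 3 groups of 2 libraries each. The control cells carried a guide RNA against dTomato, a fluorescent protein gene that human cells do not have. Cl1 and Cl10 were single-cell clones in which guides in the flanking introns had deleted exon 2 of DUSP1, a phosphatase that switches off MAP kinases. The deletion was heterozygous (DUSP1-/+), although the labels call the clones knockouts. By Western blot the study found no DUSP1 protein in either clone. It proposes that indels in the remaining allele could be the reason. All 3 groups had received a guide vector with puromycin selection and Cas9 from a second lentivirus with blasticidin selection, and the cells grew in medium with serum. Apart from these lentiviral infections, no infection is named for any group, and no interferon treatment. Each deletion group was 1 clone, so the deletion and the clone cannot be told apart. The libraries of a separate SOX2 experiment in the same series were not used here.

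Interferons are secreted proteins that cells release when receptors such as RIG-I or MDA5 detect viral nucleic acid. Type I and type III interferons bind surface receptors whose JAK kinases phosphorylate STAT proteins, among them STAT2, which joins IRF9 in a complex called ISGF3. ISGF3 binds a short DNA element, the interferon-stimulated response element (ISRE), and turns on genes that block viral entry, translation and replication, while interferon gamma acts through the GAS element. Carcinoma cells often express part of this programme with no interferon added.

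Library totals ran from 47016495 to 70986593 counts. DUSP1 itself had 744 and 635 in the control libraries, 304 and 354 in Cl1 and 495 and 415 in Cl10, in normalized counts, which are counts scaled by TMM to a common library size. DUSP1 fell in both clones (log2 fold change -1.07, SE 0.15, adjusted p = 0.000292 in Cl1 and log2 fold change -0.59, SE 0.13, adjusted p = 0.0113 in Cl10), and the groups did not overlap. These counts cover all exons of DUSP1, not exon 2 alone, and they measure RNA, not protein. All 6 squamous epithelial markers (KRT5, KRT14, KRT17, TP63, EPCAM and CDH1) were above 3 counts in every library. The 7 leukocyte markers summed to 371 to 424 normalized counts in the control, 642 to 825 in Cl1 and 519 to 593 in Cl10. Most of this sum was CD14 alone, at 350 and 398 in the control, 778 and 581 in Cl1 and 558 and 491 in Cl10. MS4A1 was at 0 in the control and Cl1, and CD3E was at 0 in Cl10. The 6 fibroblast markers summed to 1043 to 1828 over all libraries, nearly all of it COL1A1 (1033 to 1822), with LUM at 0 in each group. The 4 endothelial markers summed to 157 to 446, mostly VWF (152 to 444), with KDR at 0. The part of these levels in the results was not tested. Within the control, the second library read lower than the first for long genes: the median log2 ratio was 0.20 over the 13 members with under 2000 exon bases and -0.30 over the 9 members with at least 5000. In bulk RNA, more cells expressing a gene and more RNA per cell cannot be told apart.

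The promoters of many of these genes hold the element through which ISGF3 acts. RefSeq promoter windows of 300 bases, from 250 before to 50 after a start site (GRCh38.p14), were matched for 37 of the 47 members, with 51 windows in all. DHX58, IRF7, IFIT2, OAS2, OASL, UBA7, USP18, MX2, GBP2 and TRIM22 had no window in the table used. The ISRE was searched on both strands as TTTC, any 2 bases and TTTC again, with overlapping matches counted, and the GAS element as TTCNNNGAA, which reads alike on both strands and can share its TTC with an ISRE match. The ISRE letters stood in 29 of the 51 member windows (56.9%, 95% Wilson interval 43.3 to 69.5) and in 3.57% of all 35116 windows. By gene, 24 of the 37 members had one (64.9%), beside 4.38% of the 27305 genes in the table. The GAS letters stood in 13 of the 51 member windows (25.5%) and in 7.66% of all windows. The 3 windows printed here belong to members with large changes: IFI27, the member that fell most, and RSAD2 and GBP1, which rose in both clones. All 3 hold the letters, which was in part fixed by the choice of window. IFI27 and RSAD2 had 2 windows each, and a window with the letters was taken where there was one. Not every member that changed much held them: CMPK2, with the largest rise in Cl10, had 0 matches in its 3 windows. Capitals mark the ISRE letters.
IFI27, chr14:94110486-94110785, plus strand: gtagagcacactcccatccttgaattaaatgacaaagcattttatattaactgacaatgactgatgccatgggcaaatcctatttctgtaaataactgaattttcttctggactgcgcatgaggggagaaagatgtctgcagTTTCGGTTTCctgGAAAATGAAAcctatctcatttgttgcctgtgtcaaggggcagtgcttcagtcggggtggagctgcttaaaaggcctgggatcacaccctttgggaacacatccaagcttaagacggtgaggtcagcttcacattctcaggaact
RSAD2, chr2:6877527-6877826, plus strand: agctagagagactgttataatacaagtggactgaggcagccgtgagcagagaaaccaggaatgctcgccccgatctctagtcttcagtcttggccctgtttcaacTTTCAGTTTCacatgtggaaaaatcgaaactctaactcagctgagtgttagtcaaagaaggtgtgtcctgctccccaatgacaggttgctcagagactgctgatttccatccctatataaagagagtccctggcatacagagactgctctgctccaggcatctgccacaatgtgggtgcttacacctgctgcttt
GBP1, chr1:89065159-89065458, minus strand: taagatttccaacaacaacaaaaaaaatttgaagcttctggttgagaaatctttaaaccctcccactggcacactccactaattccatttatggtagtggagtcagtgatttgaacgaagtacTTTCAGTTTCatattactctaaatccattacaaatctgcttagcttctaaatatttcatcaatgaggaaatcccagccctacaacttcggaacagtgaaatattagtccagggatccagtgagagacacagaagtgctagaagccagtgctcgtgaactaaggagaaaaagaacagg
IFI27 held a pair of matches on opposite strands, starting at positions -108 and -95 from the start site, while RSAD2 and GBP1 each held 1 match, at positions -145 and -127. RSAD2 and GBP1 carried the same 10 letters. A match to these letters is a description of the sequence only: among the members with a window, it was present in 14 of the 22 that rose in Cl10, in 5 of the 6 that fell there and in 5 of the 9 that did not pass.

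Most members that changed were higher in the clones, and the effectors held most of these. A gene passed when the p of edgeR's quasi-likelihood test, adjusted over all genes tested, was under 0.05, and it was called when its log2 fold change was also beyond 1 in either direction. All 47 members were high enough to be tested in each comparison. Library values are normalized counts throughout, and a lone value in parentheses is a log2 fold change. In Cl1, 24 members passed as higher, where 12.4% of all genes tested did, and 1 passed as lower, where 12.8% of all genes did. In Cl10, 28 members passed as higher, against 20.6% of all genes, and 9 as lower, against 21.8%. Both comparisons used the same control libraries. The median log2 fold change of the members was 0.36 in Cl1 and 0.45 in Cl10, beside -0.013 and -0.011 over all genes tested. The median in Cl1 was 0.36 without Cl1 replicate 1 and 0.37 without Cl1 replicate 2. Fewer members then passed as higher, in fits where the lone Cl1 library has no spread of its own. Without control replicate 1, more members passed as lower in Cl10.

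Relative to the control mean, the median member stood at log2 values of 0.36 in each Cl1 library and at 0.49 and 0.42 in the Cl10 libraries, while the control libraries stood at 0.0073 and -0.0074. The members together took between 0.60% and 0.70% of all counts in a library. By the larger change, 7 members were called higher in Cl1 (background 4.27%) and 8 in Cl10 (background 5.98%). IFI27 was the member called lower in Cl1 (background 3.27%), and IFI27, OASL and DDX60 were the 3 called lower in Cl10 (background 7.44%). Side by side, 21 members were higher in both clones, IFI27 was lower in both, and IFIT2 was higher in Cl1 and lower in Cl10. IFIT3 and GBP2 passed as higher in Cl1 and did not pass in Cl10. In Cl10 alone, 7 passed as higher and 7 as lower, and 8 members passed in neither clone. No share over all genes was taken for these joint counts, and both clones were set against the same control libraries. The 21 therefore has no background here.

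**Figure D1:**
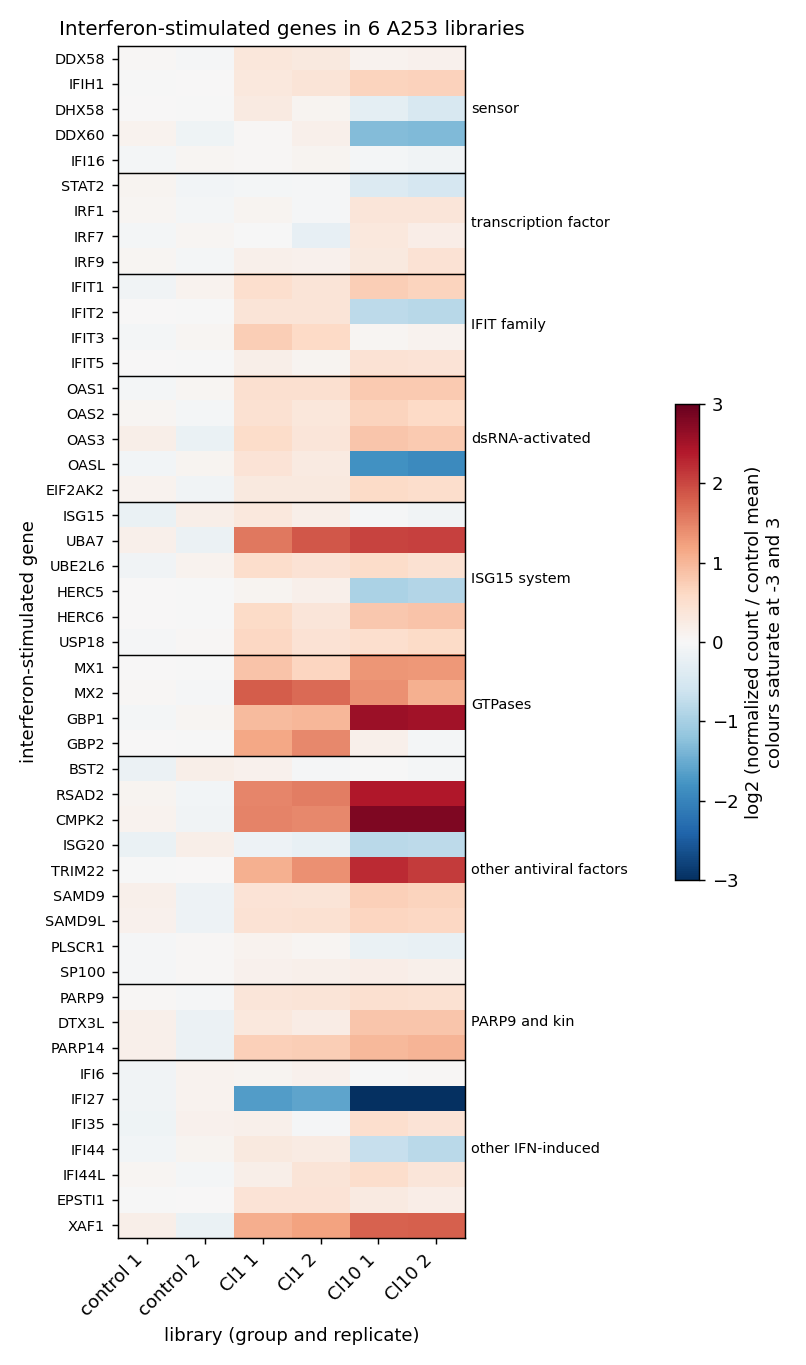
Log2 ratio of the normalized count to the control mean for the 47 interferon-stimulated genes (vertical axis, grouped by role) in the 6 libraries (horizontal axis). Red is above and blue below the control mean with saturated colours at the ends of the scale. The libraries of a clone resemble each other, with CMPK2, GBP1, RSAD2 and TRIM22 darkest red and IFI27 darkest blue in Cl10.

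The sensors detect nucleic acid in the cell, and 1 of the 5 passed in Cl1 and 3 in Cl10. In Cl1, 1 of the 5 rose (20%, background 12.4%) and all 5 log2 fold changes were above 0 (median 0.18, beside -0.013 over all genes). In Cl10, 1 rose (20%, background 20.6%) and 2 fell (40%, background 21.8%). DDX58, which encodes RIG-I, the sensor of viral RNA ends, had 10953 and 10572 in the control libraries, 13568 and 13246 in Cl1 and 11637 and 11786 in Cl10. The groups did not overlap, with Cl1 highest and the control lowest, and DDX58 did not pass in Cl1 (log2 fold change 0.32, SE 0.12, adjusted p = 0.063) or in Cl10 (log2 fold change 0.13, SE 0.08, adjusted p = 0.237). DDX58 did pass in Cl1 by DESeq2 (adjusted p = 0.0226), in one edgeR fit over 6 libraries (adjusted p = 0.0151) and with the trend over exon length removed (adjusted p = 0.0185). Without control replicate 1 or 2 it stood at 0.34 and 0.30 in Cl1, and without control replicate 1 at 0.14 in Cl10. A lone control library has no spread of its own, so fits without 1 control library took their spread from the clone libraries.

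IFIH1, which encodes MDA5, the sensor of long double-stranded RNA, had 2949 and 2972 in the control libraries, 3706 and 3893 in Cl1 and 4669 and 4759 in Cl10. The groups did not overlap, with Cl10 above Cl1 and Cl1 above the control. IFIH1 rose in Cl1 (log2 fold change 0.36, SE 0.11, adjusted p = 0.0257) and in Cl10 (log2 fold change 0.68, SE 0.08, adjusted p = 0.000702). The Cl1 call was lost with library size scaling and without Cl1 replicate 1 or 2 (adjusted p = 0.159 and 0.26), and Cl10 exceeded Cl1 by 0.32 on the log2 scale (adjusted p = 0.000669).

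DHX58, which encodes LGP2, a RIG-I-like protein that tunes the other RNA sensors, had 1989 and 1969 in the control libraries, 2375 and 2086 in Cl1 and 1610.2 and 1427 in Cl10. Both Cl10 libraries were below all others. DHX58 fell in Cl10 (log2 fold change -0.38, SE 0.09, adjusted p = 0.0132) and stood at 0.18 in Cl1 (adjusted p = 0.275). Without Cl10 replicate 1 or 2 the fall did not pass (-0.46 and -0.29).

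DDX60, a helicase linked to RIG-I signalling, had 7727 and 6552 in the control libraries, 7279.6 and 7901 in Cl1 and 2908 and 2845 in Cl10. Both Cl10 libraries lay far below all others, and the Cl1 libraries overlapped with the control. DDX60 fell in Cl10 (log2 fold change -1.31, SE 0.10, adjusted p = 0.000183), which is 2.47-fold lower, and its value in Cl1 was 0.09 (adjusted p = 0.635). IFI16, a sensor of DNA, had 18145 and 19641 in the control libraries, 19226 and 19879 in Cl1 and 18236 and 17485 in Cl10. The groups overlapped, and IFI16 passed in neither clone (0.052 in Cl1 and -0.076 in Cl10). Without control replicate 1, IFI16 stood at -0.14 in Cl10.

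Of the 4 transcription factors, 0 passed in Cl1 by edgeR (0 at an unadjusted p under 0.05) or by DESeq2. In Cl10, 2 rose (50%, background 20.6%) and 1 fell (25%, background 21.8%). STAT2, the ISGF3 subunit specific to type I and type III interferon, had 8879.6 and 7925 in the control libraries, 8019 and 8193 in Cl1 and 6308 and 5941 in Cl10. Both Cl10 libraries were below the rest. STAT2 fell in Cl10 (log2 fold change -0.45, SE 0.09, adjusted p = 0.00738), while the median of the 50 nearest tested genes on its chromosome was -0.49, so that STAT2 stood at 0.043 relative to its neighbours. Without Cl10 replicate 1 or 2 this fall did not pass (-0.49 and -0.41). Its value in Cl1 was -0.05 (adjusted p = 0.796), and this turned to 0.11 relative to its neighbours and to 0.032 without control replicate 1.

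IRF1, an activator induced by interferon gamma, had 2243 and 2060.0 in the control libraries, 2263 and 2105 in Cl1 and 2769.5 and 2753 in Cl10. IRF7, the factor that amplifies type I interferon production, had 3906 and 4181 in the control libraries, 4003 and 3419 in Cl1 and 5040.0 and 4665 in Cl10. For both genes the Cl10 libraries lay above all others, and 16.3% of the exon bases of IRF1 lie opposite other genes such as IRF1-AS1. IRF1 rose in Cl10 (log2 fold change 0.36, SE 0.08, adjusted p = 0.0112), as did IRF7 (log2 fold change 0.27, SE 0.08, adjusted p = 0.0399). Without Cl10 replicate 1 or 2 neither passed: IRF1 stood at 0.37 in each case and IRF7 at 0.22 and 0.32. In Cl1 the values were 0.024 for IRF1 and -0.12 for IRF7, and the IRF1 value changed sign relative to its neighbours (-0.30), with library size scaling (-0.047), without control replicate 2 (-0.033) and without Cl1 replicate 1 (-0.029).

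IRF9, the DNA-binding subunit of ISGF3, had 254 and 235 in the control libraries, 269.8 and 266 in Cl1 and 298 and 328 in Cl10. The levels lay in the order control, Cl1 and Cl10 with no overlap, and IRF9 passed in neither clone (log2 fold change 0.36, SE 0.13, adjusted p = 0.0684 in Cl10). Without control replicate 1 it stood at 0.40 in Cl10. The level of IRF9 is uncertain, because 93.1% of its exon bases are shared with another gene of the table on the same strand (ENSG00000259529). Between the clones, IRF1 and IRF7 were higher in Cl10 than in Cl1 (0.34 and 0.39) and STAT2 was lower (-0.40).

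Among the 38 effectors, 23 rose (60.5%, background 12.4%) and 1 fell (2.63%, background 12.8%) in Cl1. In Cl10, 25 rose (65.8%, background 20.6%) and 6 fell (15.8%, background 21.8%). The 4 IFIT proteins bind foreign RNA and block its translation. IFIT1, which recognizes RNA caps that lack methylation, rose in Cl1 (0.44) and in Cl10 (0.72). IFIT3, which stabilizes IFIT1, rose in Cl1 (log2 fold change 0.67, SE 0.12, adjusted p = 0.00187) and stood at 0.085 in Cl10. IFIT5, which also binds RNA ends, rose in Cl10 (0.43) and stood at 0.12 in Cl1.

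IFIT2, a family member that also promotes cell death, had 4586 and 4570.5 in the control libraries, 6005 and 5960.4 in Cl1 and 2669 and 2589 in Cl10. The Cl1 libraries lay above the control and the Cl10 libraries below it, without overlap. IFIT2 rose in Cl1 (log2 fold change 0.39, SE 0.11, adjusted p = 0.0201) and fell in Cl10 (log2 fold change -0.80, SE 0.08, adjusted p = 0.000376). The rise in Cl1 did not pass without Cl1 replicate 1 or 2 (0.38 and 0.40). The difference between the clones was tested directly: Cl10 was 2.27-fold below Cl1 (log2 fold change -1.18, SE 0.06, adjusted p = 1.69e-08).

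The oligoadenylate synthetases OAS1, OAS2 and OAS3 make the messenger that activates RNase L once they bind double-stranded RNA. OAS1, OAS2 and OAS3 rose in both clones, in Cl1 by 0.48, 0.40 and 0.46 on the log2 scale and in Cl10 by 0.79, 0.63 and 0.81. EIF2AK2 encodes PKR, the kinase that halts translation on double-stranded RNA, and it rose in Cl10 (0.56) and stood at 0.29 in Cl1.

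OASL, a relative of the synthetases that has no synthetase activity and enhances RIG-I signalling, went another way. OASL had 12127 and 13463 in the control libraries, 16922 and 15350.3 in Cl1 and 3610.5 and 3392 in Cl10. The Cl10 libraries lay far below the other 2 groups, and the Cl1 libraries lay above the control. OASL fell in Cl10 (log2 fold change -1.86, SE 0.09, adjusted p = 4.62e-05), which is 3.64-fold lower, and did not pass in Cl1 (log2 fold change 0.34, SE 0.12, adjusted p = 0.0665). OASL did pass as higher in Cl1 by DESeq2 (adjusted p = 0.0266), in one edgeR fit over 6 libraries (adjusted p = 0.0215) and with the trend over exon length removed (adjusted p = 0.0183). Without control replicate 2 it stood at 0.42 in Cl1. OAS1, OAS2 and OAS3 were each higher in Cl10 than in Cl1, by 0.31, 0.23 and 0.35, where OASL was lower by a log2 fold change of -2.20 (adjusted p = 8.17e-10).

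ISG15 is a ubiquitin-like protein that is attached to other proteins by UBA7 (the activating enzyme), UBE2L6 (the conjugating enzyme) and HERC5 (the ligase) and removed by USP18, which also blocks the type I receptor. ISG15 had 33926 and 44434 in the control libraries, 48915 and 44079.7 in Cl1 and 38133 and 36462 in Cl10. The groups overlapped, and ISG15 did not pass in either clone (0.25 in Cl1 and -0.066 in Cl10). Without control replicate 1 or 2 it stood at -0.26 and 0.14 in Cl10, and without control replicate 2 at 0.46 in Cl1. The first enzyme of the pathway changed most: UBA7 had 197 and 157 in the control libraries, 526 and 648 in Cl1 and 722 and 729 in Cl10. The groups did not overlap, and UBA7 rose 3.3-fold in Cl1 (log2 fold change 1.72, SE 0.17, adjusted p = 2.33e-05) and 4.09-fold in Cl10 (log2 fold change 2.03, SE 0.14, adjusted p = 0.00012). The higher level in Cl10 than in Cl1 (0.32, adjusted p = 0.0299) did not pass without Cl1 replicate 1 (0.16), without Cl10 replicate 1 or 2 (0.32 and 0.31), by DESeq2 (adjusted p = 0.0616) or in one edgeR fit over 6 libraries (adjusted p = 0.102).

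UBE2L6 and USP18 rose in both clones, UBE2L6 by 0.48 and 0.52 on the log2 scale in Cl1 and Cl10 and USP18 by 0.53 and 0.55. HERC5 had 5756 and 5689 in the control libraries, 6052 and 6395 in Cl1 and 2974 and 3107 in Cl10. Both Cl10 libraries were below all others, and HERC5 fell in Cl10 (log2 fold change -0.91, SE 0.08, adjusted p = 0.000257) while its value in Cl1 was 0.12 (adjusted p = 0.451). HERC6, a related ligase, rose in both clones (0.48 in Cl1 and 0.83 in Cl10). In Cl10 the enzymes for activation and conjugation rose, the ligase fell and the modifier itself did not pass.

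The 4 GTPases all rose in Cl1 (100%, background 12.4%), and 3 of them rose in Cl10 (75%, background 20.6%). MX1, which traps viral ribonucleoproteins in the cytoplasm, had 3434 and 3403 in the control libraries, 6208 and 5378 in Cl1 and 8622 and 8476 in Cl10. The order was control, Cl1 and Cl10 with no overlap, and MX1 rose in Cl1 (log2 fold change 0.76, SE 0.12, adjusted p = 0.000525) and in Cl10 (log2 fold change 1.33, SE 0.08, adjusted p = 7.32e-05). MX2, a restriction factor of HIV that sits at nuclear pores, had 51.6 and 49.5 in the control libraries, 178 and 165 in Cl1 and 129.7 and 105 in Cl10. MX2 was the member with the lowest level in the control, 0.258 RPKM, where RPKM is the normalized count scaled for exon length and library size. It rose in Cl1 (log2 fold change 1.76, SE 0.22, adjusted p = 0.000129) and in Cl10 (log2 fold change 1.22, SE 0.22, adjusted p = 0.00426). Here the Cl1 libraries were the higher ones, although this difference between the clones (-0.54, adjusted p = 0.0263) did not pass without Cl1 replicate 1 (-0.48), without Cl10 replicate 2 (-0.40), with library size scaling (-0.46) or by DESeq2 (adjusted p = 0.0771).

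GBP1 and GBP2 coat intracellular bacteria and are best known as targets of interferon gamma. GBP1 had 265 and 285 in the control libraries, 533 and 548 in Cl1 and 1617 and 1579 in Cl10. The groups were well apart, and GBP1 rose 1.97-fold in Cl1 (log2 fold change 0.98, SE 0.14, adjusted p = 0.000422) and 5.84-fold in Cl10 (log2 fold change 2.55, SE 0.10, adjusted p = 2.29e-05). GBP2 had 869 and 857 in the control libraries, 1938 and 2332 in Cl1 and 967 and 834 in Cl10. Both Cl1 libraries exceeded all others and Cl10 overlapped with the control. GBP2 rose in Cl1 (log2 fold change 1.31, SE 0.12, adjusted p = 1.31e-05) and did not pass in Cl10 (log2 fold change 0.067, SE 0.10, adjusted p = 0.633), where its sign changed relative to its neighbours (-0.16) and without Cl10 replicate 1 (-0.039).

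Of the 9 other antiviral factors, 5 rose in Cl1 (55.6%, background 12.4%). In Cl10, 5 rose (55.6%, background 20.6%) and 1 fell (11.1%, background 21.8%). RSAD2 encodes viperin, which makes a chain-terminating nucleotide, and CMPK2 is a mitochondrial nucleotide kinase that supplies its substrate. RSAD2 had 296 and 264 in the control libraries, 771 and 815 in Cl1 and 1483 and 1473 in Cl10. CMPK2 had 406 and 354 in the control libraries, 1063 and 1032 in Cl1 and 2654 and 2629 in Cl10. For both genes the 3 groups were separate and in the order control, Cl1 and Cl10.

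CMPK2 rose 2.76-fold in Cl1 (log2 fold change 1.46, SE 0.13, adjusted p = 1.02e-05) and 6.96-fold in Cl10 (log2 fold change 2.80, SE 0.10, adjusted p = 1.77e-05), which was the largest rise of the 47 members in Cl10. RSAD2 rose 2.83-fold in Cl1 (log2 fold change 1.50, SE 0.14, adjusted p = 1.3e-05) and 5.28-fold in Cl10 (log2 fold change 2.40, SE 0.10, adjusted p = 3.31e-05). Of the exon bases of CMPK2, 11.3% lie opposite exons of RSAD2, and the strand setting of the counting is not given in the sources used here.

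TRIM22, a ubiquitin ligase that restricts viruses including HIV, had 305 and 313 in the control libraries, 644 and 794 in Cl1 and 1453 and 1315 in Cl10. The groups did not overlap, and TRIM22 rose in Cl1 (log2 fold change 1.22, SE 0.15, adjusted p = 0.000116) and in Cl10 (log2 fold change 2.17, SE 0.10, adjusted p = 4.42e-05). SAMD9 and SAMD9L, which restrict poxviruses, rose in both clones by smaller amounts, SAMD9 by 0.40 and 0.71 and SAMD9L by 0.45 and 0.63 on the log2 scale in Cl1 and Cl10. ISG20, an exonuclease that degrades RNA, fell in Cl10 (-0.79) and stood at -0.19 in Cl1. BST2 (tetherin, which holds budding virions at the cell surface), PLSCR1 and SP100 passed in neither clone, with values between -0.20 and 0.17 over both clones.

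PARP9 and DTX3L form a complex that modifies histones and proteins at damaged DNA and at interferon-stimulated genes, and PARP14 is a related ADP-ribosyltransferase. All 3 rose in Cl10, by log2 fold changes of 0.48 for PARP9, 0.84 for DTX3L and 0.998 for PARP14. In Cl1, PARP9 (0.37) and PARP14 (0.72) rose and DTX3L stood at 0.27 (adjusted p = 0.145).

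The remaining 7 interferon-induced proteins held the member with the largest fall. IFI27 (ENSG00000165949, chr14:94104836-94116695 in hg38), a small mitochondrial membrane protein and a common blood marker of type I interferon, had 12088 and 14108 in the control libraries, 4119 and 4375 in Cl1 and 873 and 956 in Cl10. The 3 groups were far apart, and the order was control, Cl1 and Cl10 from high to low. IFI27 fell 3.08-fold in Cl1 (log2 fold change -1.62, SE 0.13, adjusted p = 2.75e-06) and 14.3-fold in Cl10 (log2 fold change -3.84, SE 0.12, adjusted p = 1.2e-05). IFI6, its relative and an inhibitor of apoptosis, did not pass in either clone (0.11 in Cl1 and 0.012 in Cl10), and 26.6% of its exon bases are shared with LINC02574.

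XAF1, which counters the apoptosis inhibitor XIAP, had 708 and 547 in the control libraries, 1331 and 1451 in Cl1 and 2155 and 2191 in Cl10. The groups did not overlap, and XAF1 rose in Cl1 (log2 fold change 1.15, SE 0.14, adjusted p = 0.000115) and in Cl10 (log2 fold change 1.79, SE 0.13, adjusted p = 0.000134), although 74.2% of its exon bases lie opposite exons of PRAL, whose reads may be mixed with its own. IFI44, which restrains viral replication, had 4542 and 5064 in the control libraries, 5919 and 5738 in Cl1 and 2955 and 2747 in Cl10. Both Cl10 libraries were below all others, both Cl1 libraries were above all others, and IFI44 fell in Cl10 (log2 fold change -0.75, SE 0.09, adjusted p = 0.000922) without passing in Cl1 (0.28). Without control replicate 2, IFI44 stood at 0.36 in Cl1. IFI44L rose in Cl10 (0.45), EPSTI1 rose in both clones (0.41 in Cl1 and 0.24 in Cl10), and IFI35 rose in Cl10 (0.47).

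**Figure D2:**
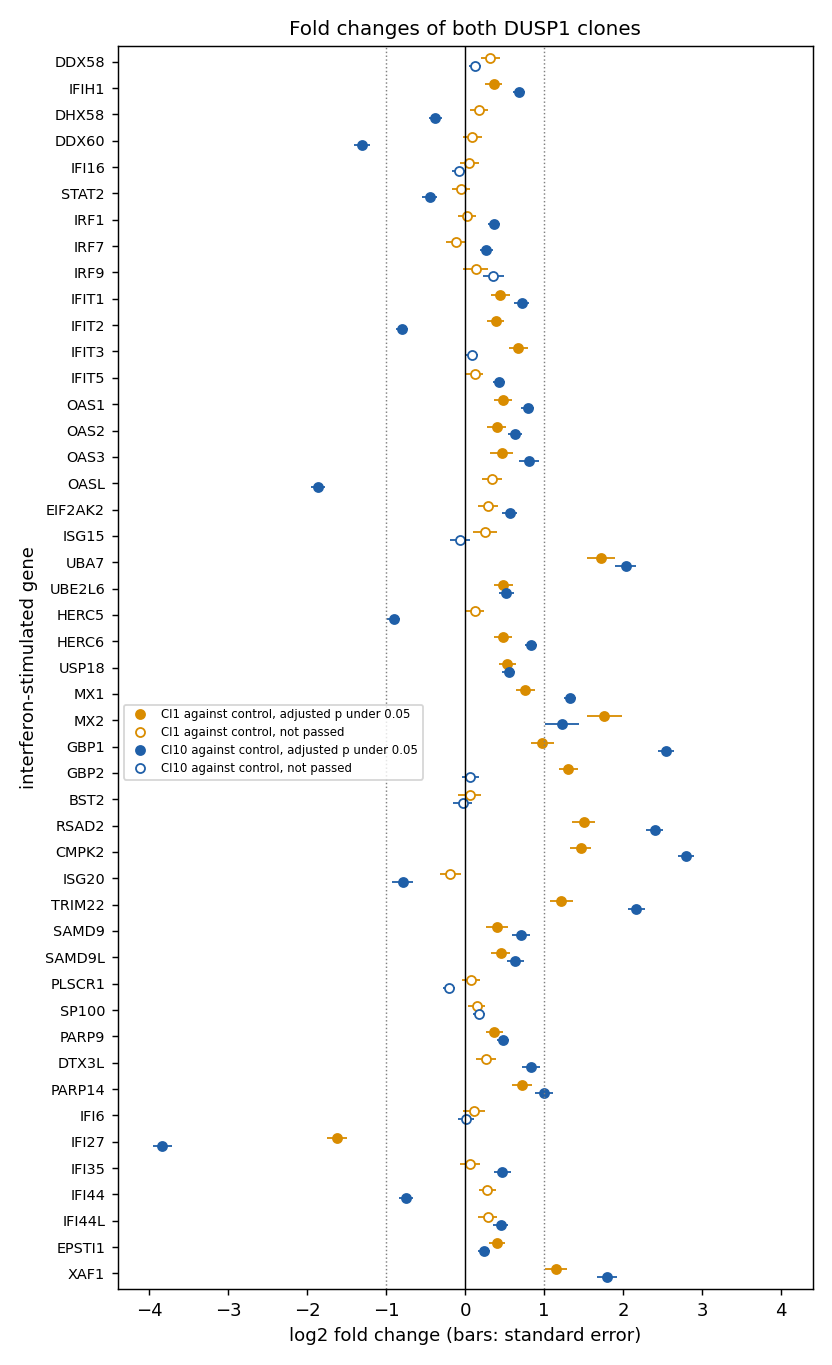
Log2 fold change with its standard error (horizontal axis) of each of the 47 members (vertical axis) in Cl1 (orange) and Cl10 (blue) against the control, with filled points for an adjusted p under 0.05 and dotted lines at -1 and 1. IFI27 stands alone on the left in both clones, OASL and DDX60 pass -1 in Cl10, and UBA7, MX2, RSAD2, CMPK2, TRIM22 and XAF1 exceed 1 in both clones.

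Many of the smaller changes did not pass in every fit with 1 library left out, where a lone library has no spread of its own. Of the 25 members that passed in Cl1, 14 did not pass when some 1 library was left out: IFIH1, the 3 IFIT genes IFIT1, IFIT2 and IFIT3, OAS1, OAS2, OAS3, UBE2L6, HERC6, USP18, SAMD9, SAMD9L, PARP9 and EPSTI1. The other 11 passed each time, among them IFI27 and all 7 members called higher in Cl1. Of the 37 that passed in Cl10, 27 passed each time, and DHX58, STAT2, IRF1, IRF7, IFIT5, UBE2L6, PARP9, IFI35, IFI44L and EPSTI1 did not. EPSTI1 in Cl10 also did not pass by DESeq2 (adjusted p = 0.106). Without control replicate 1 or 2, BST2 stood in Cl10 at -0.21 and 0.15 and IFI6 at -0.10 and 0.12, in opposite directions for each gene.

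The clones also differed from each other, and this comparison used no control library. In Cl10 against Cl1, 22 members were higher (background 24.9%) and 16 were lower (background 24.1%), and the median member differed by 0.17 on the log2 scale, beside -0.0012 over all genes. This median was 0.10 without Cl1 replicate 1 and also without Cl10 replicate 1. Past a log2 fold change of 1, 2 members were higher (background 4.47%) and 7 were lower (background 6.28%). The 2 higher ones were GBP1 (log2 fold change 1.57, SE 0.08, adjusted p = 2.35e-08) and CMPK2 (log2 fold change 1.34, SE 0.07, adjusted p = 1.82e-08). The largest falls were those of IFI27 (log2 fold change -2.21, SE 0.07, adjusted p = 8.17e-10) and OASL (log2 fold change -2.20, SE 0.07, adjusted p = 8.17e-10). All 9 members that fell against the control in Cl10 were also lower than in Cl1, and 22 of the 28 that rose against the control in Cl10 were also higher than in Cl1. These comparisons share the Cl10 libraries, and no share over all genes was taken for such joint counts. Of the 38 members that differed between the clones, 26 passed with any 1 library left out, and DDX58, IFIT1, OAS2, EIF2AK2, ISG15, UBA7, MX2, SAMD9, SAMD9L, PLSCR1, PARP14 and EPSTI1 did not. Among the sensors, 1 was higher and 3 were lower in Cl10 than in Cl1, and DDX58, one of the 3 (-0.19), did not pass without Cl10 replicate 1 or 2 (-0.18 and -0.20), with library size scaling (-0.12) or in one edgeR fit over 6 libraries (adjusted p = 0.0885).

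Members that lie next to each other did not always move together. With neighbours defined as members no more than 200 kb apart, 22 members fell into 9 loci. At 3 loci, neighbours passed in opposite directions in Cl10. On chr1:78619902-78664078 (hg38), IFI44L rose (0.45) and IFI44 fell (-0.75). On chr4:88378739-88506163, HERC6 rose (0.83) and HERC5 fell (-0.91). At the IFIT locus on chr10:89283694-89421605, the order along the chromosome was IFIT2, IFIT3, IFIT1 and IFIT5, and in this order the log2 fold changes of Cl10 were -0.80, 0.085, 0.72 and 0.43. In Cl1 this could not occur, because IFI27, the only member that passed as lower there, is in none of the 9 loci. How often neighbouring genes in general part in Cl10 was not tested.

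**Figure D3:**
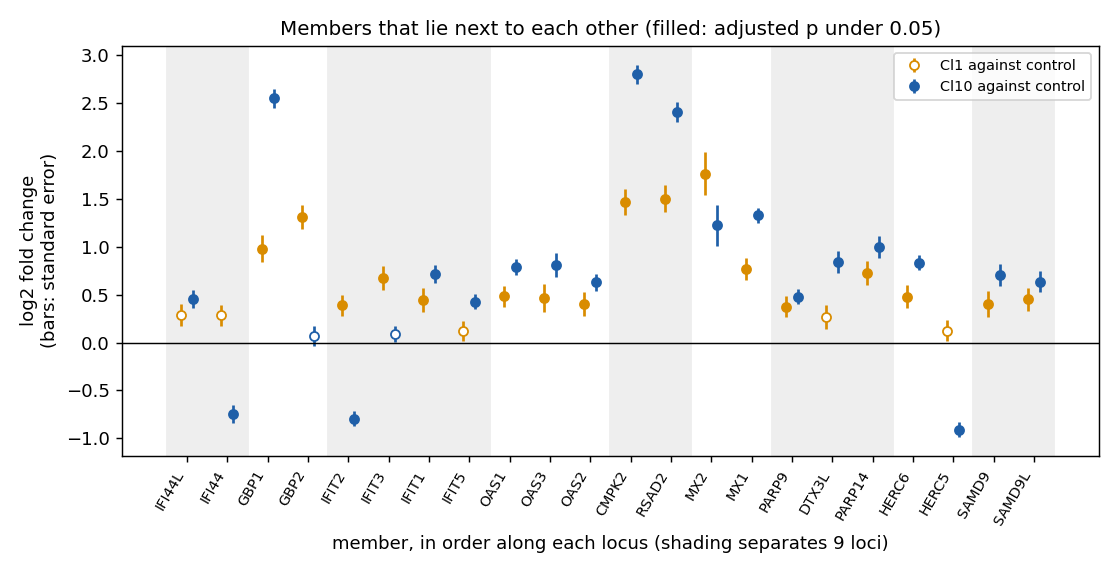
Log2 fold change with its standard error (vertical axis) of the 22 members that lie within 200 kb of another member (horizontal axis, in order along each of 9 loci, shaded alternately), in Cl1 (orange) and Cl10 (blue) against the control, filled where the adjusted p was under 0.05. In Cl10, IFI44, IFIT2 and HERC5 lie below 0 beside neighbours above 0, and GBP2 lies near 0 beside GBP1 at 2.55.

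The GBP pair differed in both directions: GBP1 was higher in Cl10 than in Cl1 and GBP2 was lower (1.57 and -1.24). MX1 and MX2 also passed in opposite directions between the clones (0.56 and -0.54). By contrast, the 3 OAS genes, the CMPK2 and RSAD2 pair, and SAMD9 with SAMD9L moved the same way in all 3 comparisons. The ISRE letters of neighbours that parted in Cl10 follow as 30 bases each, with the match in capitals and the position of its first base from the start site, read on the strand of the gene (GRCh38.p14).
IFI44, position -18, chr1:78649761-78649790: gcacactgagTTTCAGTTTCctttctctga
IFI44L, position -164, chr1:78620274-78620303: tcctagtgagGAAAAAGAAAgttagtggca
IFIT3, position -122, chr10:89327865-89327894: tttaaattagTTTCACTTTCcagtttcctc
IFIT1, position -103, chr10:89392510-89392539: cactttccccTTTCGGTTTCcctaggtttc
IFIT5, position -45, chr10:89414513-89414542: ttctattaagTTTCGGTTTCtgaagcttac
HERC5, position -74, chr4:88457035-88457064: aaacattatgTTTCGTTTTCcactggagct
IFI44L held the same 30 bases a second time, with the match at position -73. IFIT1 and IFIT5 carried the same 10 letters, which IFI27 also holds. One match is shown for each gene, and some windows held more. HERC5, which fell in Cl10, had 3 matches and HERC6, which rose, had 0. IFIT5 and IFIT1, which rose, had 3 and 2, and the 2 windows of IFIT3, which did not pass, had 4 in all.

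PARP9 and DTX3L start on opposite strands and share a single match, printed here as each gene reads it because both rose in Cl10.
PARP9, position -41, chr3:122564322-122564351, minus strand: gggcgcaaagTTTCAGTTTCgcttccctgg
DTX3L, position -6, chr3:122564322-122564351, plus strand: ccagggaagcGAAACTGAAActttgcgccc
The match of PARP9 holds the same 10 letters as those of RSAD2, GBP1 and IFI44. Of these genes, PARP9, RSAD2 and GBP1 rose in Cl10 and IFI44 fell.

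The members differed widely in their level in the control, from 0.258 RPKM for MX2 to 1069 RPKM for ISG15, and the larger rises were among those of low level. Over the 16 members with the lowest control level, up to 13.3 RPKM, the median log2 fold change was 0.85 in Cl1 and 0.82 in Cl10, and 11 and 13 of them rose. All 7 members called higher in Cl1, and 7 of the 8 in Cl10, were among these 16. Over genes of the same range of control level, the median was -0.034 in Cl1 and -0.033 in Cl10, and 12% and 20.2% rose. Of the genes in this range, 3.54% were called higher in Cl1 and 5.08% in Cl10. In the range of the next 16 members these shares were 0.97% and 1.64%, and in that of the 15 highest 1.03% and 0.572%. Genes of low level were thus called higher more often in general. The control libraries enter both the level and the fold change.

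Over the 15 members with the highest level, from 44.4 RPKM, the median log2 fold change was 0.28 in Cl1 and 0.012 in Cl10. ISG15, IFI6 (759 RPKM) and BST2 (438 RPKM) had the highest control levels and passed in neither clone. The control libraries do not enter the fold change of Cl10 against Cl1. There the medians were 0.29 over the 16 lowest, 0.069 over the 16 in the middle and -0.099 over the 15 highest. Over all genes in the same ranges they were 0.0033, 0.0305 and -0.0659.

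**Figure D4:**
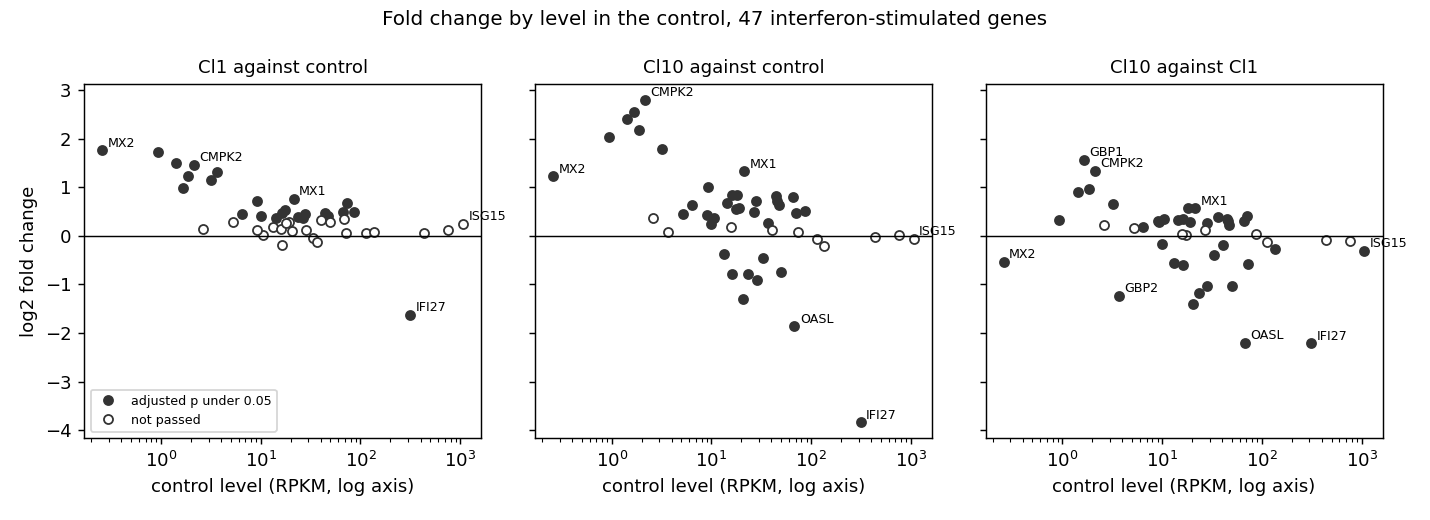
Control level in RPKM (horizontal axes, log scale) and log2 fold change (vertical axis) of the 47 members in Cl1 against control, Cl10 against control and Cl10 against Cl1, with filled points for an adjusted p under 0.05. The largest rises against the control lie at low control levels, ISG15 on the far right lies near 0, and IFI27 is the lowest point at a control level of 314 RPKM.

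Other genes of the pathway, 66 in all, had smaller median changes. In Cl1, 56 were tested, of which 6 rose (10.7%, background 12.4%) and 3 fell (5.36%, background 12.8%), and the median log2 fold change was 0.069. In Cl10, 21 of 59 tested rose (35.6%, background 20.6%) and 12 fell (20.3%, background 21.8%), and the median was 0.078. Among 30 further interferon-stimulated genes in this list, 28 were tested in Cl1, where 4 rose (14.3%, background 12.4%) and 1 fell (3.57%, background 12.8%). All 30 were tested in Cl10, where 12 rose (40%, background 20.6%) and 7 fell (23.3%, background 21.8%). The chemokine CCL5 had 801 and 779 in the control libraries, 728 and 725 in Cl1 and 266 and 288 in Cl10. The Cl10 libraries did not overlap with the others, and CCL5 fell in Cl10 (log2 fold change -1.51, SE 0.11, adjusted p = 0.00014). APOL1, a trypanosome-killing factor, had 1975 and 2094 in the control libraries, 5391 and 4691 in Cl1 and 1713 and 1785 in Cl10. Both Cl1 libraries were above all others, and APOL1 rose in Cl1 (log2 fold change 1.31, SE 0.12, adjusted p = 8.31e-06), as did the GTPase GBP4 (log2 fold change 1.56, SE 0.20, adjusted p = 0.000159).

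The chemokines CXCL10 and CXCL11, which attract T cells, were at few counts. CXCL10 had 5.92 and 8.6 in the control libraries, 5.12 and 1.17 in Cl1 and 26.5 and 25.1 in Cl10. It passed as higher in Cl10 against the control (log2 fold change 1.84, SE 0.42, adjusted p = 0.0117). CXCL11 had 2.54 and 5.38 in the control libraries, 2.56 and 0 in Cl1 and 13.8 and 10.8 in Cl10. It passed as higher in Cl10 against Cl1 (adjusted p = 0.00994), and no fold is given because neither Cl1 library held more than 3 counts.

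Among the ligands, IFNL1, a type III interferon made by epithelium, had 187 and 182 in the control libraries, 194 and 169 in Cl1 and 43.2 and 58.6 in Cl10. Cl10 lay below the other groups, which overlapped, and IFNL1 fell in Cl10 (log2 fold change -1.86, SE 0.21, adjusted p = 0.00072) and stood at -0.019 in Cl1. IFNL3 was at few counts, with 16.9 and 44.1 in the control libraries, 26.5 and 35.1 in Cl1 and 7.86 and 7.18 in Cl10. It passed as lower in Cl10 (log2 fold change -1.96, SE 0.60, adjusted p = 0.0341), although its reads may be split with the near-identical IFNL2. IFNB1, interferon beta, had 5.92 and 15.1 in the control libraries, 5.12 and 0 in Cl1 and 6.88 and 10.8 in Cl10. IFNG, IFNA2 and IFNA5 had 0 counts in every library, and at these depths a count of 0 allows up to 3.

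Among signalling genes, the type I receptor chain IFNAR1 rose in Cl10 (0.40), and the interferon gamma receptor chain IFNGR2 fell in both (-0.48 and -0.87). IKBKE, a kinase upstream of interferon production, had 561 and 576 in the control libraries, 882 and 739 in Cl1 and 1146 and 1254 in Cl10. The groups did not overlap, and IKBKE rose in Cl1 (log2 fold change 0.52, SE 0.14, adjusted p = 0.0149) and in Cl10 (log2 fold change 1.08, SE 0.10, adjusted p = 0.000293). Of the feedback inhibitors, SOCS3 fell in Cl10 (log2 fold change -1.05, SE 0.08, adjusted p = 0.000188), and SOCS1 was higher in Cl10 than in Cl1 (log2 fold change 1.08, SE 0.12, adjusted p = 1.15e-05).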

How the data were processed

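A253 cells were profiled by poly(A) RNA-seq in 6 libraries, grouped by the sample titles. Count columns were matched to the titles by the clone and replicate digits in the column names. The deposited table holds raw counts per gene, which the authors made by alignment with HISAT2 to hg38 and read counting with the HTSeq protocol. The submitters' processing notes also name StringTie and DESeq. The labels name a stranded mRNA kit and the study's methods a TruSeq kit, and tool versions and the strand setting of the counting are not given in the sources used here. If counting ignored strand, reads of overlapping opposite-strand genes are mixed.

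From the counts, each clone against the control and Cl10 against Cl1 were tested with edgeR 4.0.16 (R 4.3.3): filterByExpr, TMM, estimateDisp, glmQLFit and glmQLFTest, with Benjamini-Hochberg adjustment over all genes tested. Standard errors were taken from the F statistic, as the size of the log2 fold change over the root of F. Normalized counts used TMM factors and a common library size, the mean of the totals, and RPKM used exons of the canonical transcript in GENCODE 44. The labels do not say whether libraries of a group came from separate cultures, so p-values measure only the spread between these libraries, which may be technical. Between libraries of a group, genes with at least 100 counts there were compared by a chi-square test on raw library totals. Of these, 58.5% (control), 47.3% (Cl1) and 23.6% (Cl10) differed beyond counting noise at an unadjusted p under 0.05. TMM factors were not applied, so differences in scaling between the libraries enter these shares. Floors and intervals cover counting error only.

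The members, gene lists and tests were chosen with earlier results of these data known. Values in every library are given for all sensors and transcription factors, and for effectors called in at least 1 comparison. ISG15 was added after its values were seen. The other effectors are given by fold changes and counts, and further pathway genes by counts. Those called have library values, except GBP4, SOCS1 and SOCS3, which are given by fold change. IFNAR1, IFNGR2, IFNB1, IFNG, IFNA2 and IFNA5 were also chosen after their values were seen, and 1 pathway gene is not reported here. Promoters were printed for members with a RefSeq window. These came from the 3 with the largest change shared by both clones and the 3 with the largest change between clones. A window with the ISRE letters was taken where a member had one. The 30-base stretches were chosen after the values were seen. Alternatives were library size scaling, DESeq2 size factors, DESeq2 1.42.0, other count filters, one fit over 6 libraries, a replicate block, subtraction of the median of 50 neighbouring genes, a stricter threshold, leaving out each library and, for the ISRE, 1 mismatch.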

Additional observations from a re-analysis of the deposited data

Results flagged for a closer look

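The clones carry the same kind of deletion, and 9 members differed between them past a log2 fold change of 1 in edgeR's quasi-likelihood test of Cl10 against Cl1. Higher in Cl10 were GBP1, by 1.57 (adjusted p = 2.35e-08), and CMPK2, by 1.34 (adjusted p = 1.82e-08). Both of these also rose against the control in each clone. Lower in Cl10 were IFI27 at -2.21 (adjusted p = 8.17e-10) and OASL at -2.20 (adjusted p = 8.17e-10), followed by DDX60 at -1.40 (adjusted p = 9.94e-09), GBP2 at -1.24 (adjusted p = 7.17e-07) and IFIT2 at -1.18 (adjusted p = 1.69e-08). HERC5 at -1.03 (adjusted p = 7.5e-08) and IFI44 at -1.03 (adjusted p = 7.63e-08) were close to the limit of 1. In each of the 9, both libraries of Cl10 lay on the same side of both libraries of Cl1. Each clone is a single line, so a difference between them cannot be told apart from one between any pair of clones.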

How the results depend on the processing

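The count of members higher in Cl1 was 13 at an adjusted p under 0.01 and ran from 10 to 28 when 1 library was left out (10 without Cl1 replicate 1, 13 without Cl1 replicate 2), where the lone library is assumed to vary like the others. The count lower in Cl1 ran from 1 to 2 (2 without control replicate 1), and the count lower in Cl10 from 7 to 14 (14 without control replicate 1). The median log2 fold change in Cl1 was 0.29 with library size scaling. In Cl10 it was 0.37 relative to the 50 nearest genes and 0.41 to 0.49 with 1 library left out. In Cl10 against Cl1 it was 0.20 relative to neighbours, 0.24 with library size scaling, 0.15 with the trend over exon length removed (an alternative chosen after seeing the data) and 0.10 to 0.16 with 1 library left out. With 1 mismatch allowed, 76.5% of member windows held the ISRE letters, beside 33% of all windows. The cause of these shifts was not tested. Over the 47 members and 3 comparisons, 19 fold changes took the other sign under some alternative, and of these STAT2 in Cl10 and PLSCR1 in Cl10 against Cl1 were ones that had passed. Relative to neighbours, the values were IFI16 -0.14, STAT2 0.11 and IRF1 -0.30 in Cl1, IFI16 0.11, STAT2 0.043, GBP2 -0.16, BST2 0.13 and PLSCR1 0.36 in Cl10, and IFI16 0.098, UBE2L6 -0.069, PLSCR1 0.29 and SP100 -0.082 in Cl10 against Cl1. With library size scaling, IFI16, IRF1, BST2 and IFI35 stood at -0.017, -0.047, -0.014 and -0.010 in Cl1. With the length trend removed, ISG15 and BST2 stood at 0.078 and 0.097 in Cl10, and with no filter IFI6 stood at -0.0054 there. With 1 library left out, the values in Cl1 ran as DDX60 -0.022 to 0.21, IFI16 -0.0068 to 0.11, STAT2 -0.13 to 0.032, IRF1 -0.033 to 0.085, BST2 -0.11 to 0.24, ISG20 -0.37 to 0.021 and IFI35 -0.069 to 0.20, those in Cl10 as ISG15 -0.26 to 0.14, GBP2 -0.039 to 0.17, BST2 -0.21 to 0.15 and IFI6 -0.10 to 0.12 and those in Cl10 against Cl1 as UBE2L6 -0.024 to 0.088 and USP18 -0.077 to 0.10. Same-numbered libraries did not deviate together (correlations -0.068, -0.018 and 0.010 over 20582 genes). A pairing by number was thus not detected, which does not exclude one. A replicate block gave 19 higher and 1 lower in Cl1, 26 and 9 in Cl10, and 22 and 16 in Cl10 against Cl1. With it, IFIH1, IFIT2, OAS2, SAMD9 and PARP9 in Cl1 (adjusted p = 0.0607, 0.0514, 0.0845, 0.0961 and 0.0649) and IRF7 and EPSTI1 in Cl10 (adjusted p = 0.0758 and 0.0977) did not pass. With 2 libraries a group, members of few counts, such as MX2, are the least precise.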
